A study of Mus musculus with 12 samples.

Results

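The genes described are 10 mouse genes of alternative macrophage activation and of repair, taken by symbol from a list of 10 names: Il4ra, Chil3, Retnla, Mgl2, Ccl24, Il10, Tgfb1, Igf1, Socs3 and Klf4. They are 10 of the 55604 genes counted, and 8 of them were among the 16406 genes with enough reads to be tested. Retnla and Ccl24 were not tested. The study sequenced RNA from bone marrow-derived macrophages of C57BL/6 mice, which are macrophages grown from marrow for 7 days with 20 ng/ml of the growth factor M-CSF. The 12 libraries fell into 3 groups of 4. One group was macrophages alone, without treatment. Another had taken up corpses of the mouse melanoma line B16-F10 in its control form, and the remaining group had taken up B16-F10 corpses that overexpress the secreted glycoprotein STC1 (STC1OE). Corpses were given at 5 per macrophage, and those not bound were washed off after 20 h of culture. All groups share the strain and the M-CSF culture, and the labels name no added interleukin-4 or interleukin-13. The sources used here do not state how the corpses were killed, whether the overexpressing line was 1 clone, or whether marrow was pooled over animals.

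Alternative activation is the state that macrophages take on when interleukin-4 or interleukin-13 binds a receptor built on the Il4ra chain and the transcription factor STAT6 is phosphorylated. In mouse macrophages this induces secreted and surface proteins that serve as markers, among them the chitinase-like protein Chil3, the resistin-like protein Retnla, the galactose-binding lectin Mgl2 and the eosinophil-attracting chemokine Ccl24. Klf4 is a zinc-finger transcription factor that cooperates with STAT6 in this response, and Socs3 is a feedback inhibitor of receptors that signal through STAT3. Il10, Tgfb1 and Igf1 encode secreted factors that macrophages make while inflammation resolves and tissue is rebuilt. Uptake of dying cells is known to raise release of IL-10 and TGF-beta in many settings.

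Stretches before the RefSeq start of 4 members follow, from RefSeq promoters on GRCm38.p6, which matched 8 of the 10 members. The RefSeq start of Socs3 lies 681 bases downstream of the start of its GENCODE gene model, so the Socs3 stretch lies within that model. They were chosen because Chil3 and Klf4 moved most and Retnla had no counts, and because Socs3 carries the same 9 letters as Chil3. Each is printed 5′ to 3′ on the strand of its gene. Capitals mark TTC and GAA with 4 bases of any kind between them, the spacing known for STAT6, or with 3 bases between them (TTCNNNGAA), the spacing known for STAT3 and STAT5. The Chil3 stretch is chr3:106167565-106167814, the Klf4 stretch chr4:55532476-55532725 and the Retnla stretch chr16:48842359-48842550, and the short Socs3 stretch is chr11:117969502-117969530.
Chil3: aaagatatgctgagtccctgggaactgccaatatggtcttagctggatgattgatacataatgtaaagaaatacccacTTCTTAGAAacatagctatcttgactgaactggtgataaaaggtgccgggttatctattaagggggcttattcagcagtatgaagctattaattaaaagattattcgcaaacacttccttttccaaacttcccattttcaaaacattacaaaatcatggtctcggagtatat
Klf4: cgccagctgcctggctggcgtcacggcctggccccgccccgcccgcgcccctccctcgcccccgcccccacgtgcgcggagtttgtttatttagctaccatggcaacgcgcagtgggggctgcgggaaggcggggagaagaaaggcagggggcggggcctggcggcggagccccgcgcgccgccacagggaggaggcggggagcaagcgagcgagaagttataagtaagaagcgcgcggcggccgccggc
Retnla: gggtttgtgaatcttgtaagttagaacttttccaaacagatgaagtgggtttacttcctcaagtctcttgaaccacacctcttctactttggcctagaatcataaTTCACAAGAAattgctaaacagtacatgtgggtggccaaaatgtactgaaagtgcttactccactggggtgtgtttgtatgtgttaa
Socs3: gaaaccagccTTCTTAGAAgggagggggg
In the 250 bases before the RefSeq start, Chil3 and Socs3 each held TTCTTAGAA, with 3 bases between the arms. Retnla held TTCACAAGAA, with 4. Klf4, Igf1 and Mgl2 held no match to either spacing or to CACCC, the box bound by Klf factors, on either strand. CACCC or its reverse complement GGGTG stood 4 times before Il4ra, 3 times before Tgfb1, 2 times before Retnla and 1 time before Socs3. Over 32851 promoters of the same length, the 4-base spacing was found in 5.85%, the 3-base spacing in 7.02% and CACCC in 52%, again on both strands, and the motifs may overlap each other. The base composition also differed, with 36.4% G and C in the Chil3 stretch and 74% in that of Klf4.

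Each library had between 28488441 and 39981074 counts on genes. Levels are given as CPM, which are counts relative to library size after TMM scaling. A gene with 0 counts may stand at up to 3 counts, which is 0.105 CPM at the lowest depth and 0.075 CPM at the highest; this covers counting error only. The macrophage markers Adgre1, Csf1r, Cd68 and Lyz2 were abundant in all groups (group means of 990 to 11200 CPM). Of the 10 macrophage markers, all tested, 4 rose and 5 fell with either kind of corpse. Over all tested genes 19.7% rose and 20.5% fell with control corpses, and 21.4% and 22.4% with STC1OE corpses. The 10 markers summed to 16990 to 17890 CPM in macrophages alone, 14800 to 16500 CPM with control corpses and 14700 to 15860 CPM with STC1OE corpses. Reads that did not align made up 10.8% to 11.5% with control corpses, 11.4% to 14% in macrophages alone, 14.4% and 14.6% in STC1OE libraries 1 and 2, and 17.5% and 17.8% in STC1OE libraries 3 and 4. Within the STC1OE group libraries 1 and 2 resembled each other (chi-square per degree of freedom of 3.89), as did libraries 3 and 4 (2.62), while pairs across gave 9.95 to 15.3. Macrophages alone split the same way (2.89 and 2.68, across 5.44 to 12). With control corpses libraries 3 and 4 were alike (2.56) and libraries 1 and 2 were not (6.37, across 4.97 to 8.22). No label names a reason, and for the calls between the corpse groups it is said below which were lost without STC1OE libraries 3 and 4. The series' design text speaks of independent experiments, and p-values measure the spread between these libraries. Every corpse group was set against the same 4 libraries of macrophages alone, so the comparisons with them are not independent of each other.

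Engulfed corpses went with a lower level of the marker Chil3 and of the regulator Klf4, a moderately lower level of Il10, and slightly higher levels of Il4ra and Tgfb1. With control corpses, 2 of the 8 tested members rose and 3 fell against macrophages alone, at an adjusted p below 0.05 by edgeR's quasi-likelihood test. In this comparison 40.1% of all tested genes passed the same threshold, 19.7% higher and 20.5% lower, so a call on its own says little and the size of each change matters. With STC1OE corpses, again 2 members rose and 3 fell, beside 43.8% of all genes, 21.4% higher and 22.4% lower. DESeq2 called 3 members higher and 3 lower there. Between the corpse groups 2 members were higher with STC1OE corpses and 0 lower, also 0 lower at an unadjusted p below 0.05 and by DESeq2, beside 5.44% of all genes, 3.33% higher and 2.12% lower. Ranges of the 4 and 4 libraries did not overlap for 6, 6 and 3 members in these comparisons, against 37.2%, 40.0% and 10.7% of all tested genes. The median log2 fold change of the tested members was −0.35 with control and −0.35 with STC1OE corpses, where that of all tested genes was −0.001 and −0.03, and it was 0.06 between the corpse groups against −0.006.

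**Figure D1:**
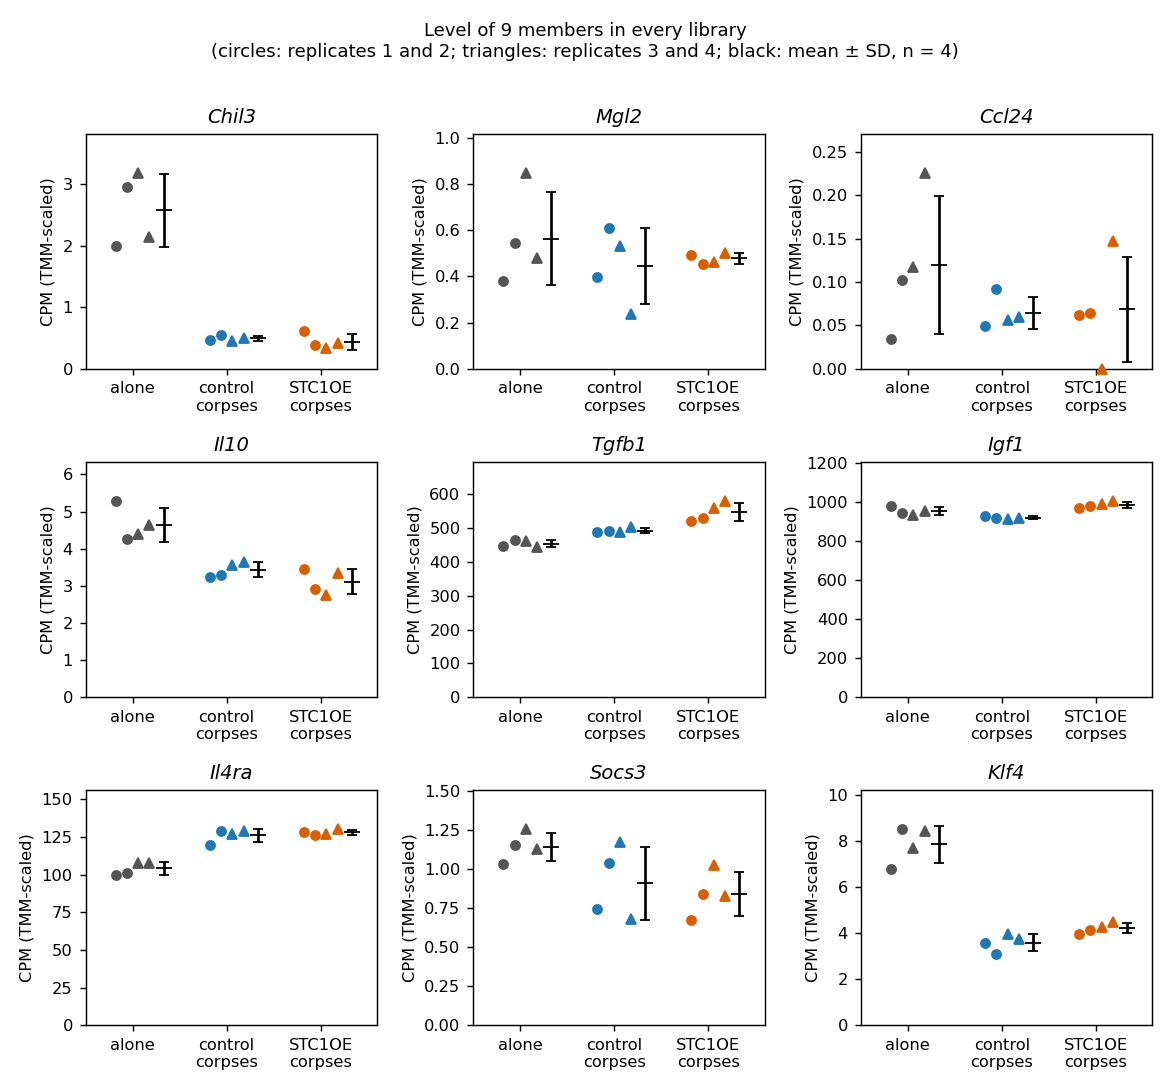
Level of 9 members in CPM (TMM-scaled, linear axis from 0) in each of the 4 libraries of macrophages alone, control corpses and STC1OE corpses; circles are replicates 1 and 2, triangles replicates 3 and 4, and black marks the mean with its SD. Chil3 lay at 2.00 to 3.19 CPM in macrophages alone and at 0.331 to 0.617 CPM in all 8 libraries with corpses, while Tgfb1 rose from group to group without overlap. Retnla had 0 counts and is not drawn.

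Il4ra, the shared receptor chain for interleukin-4 and interleukin-13 (ENSMUSG00000030748.9, chromosome 7, 125552120 to 125579474, plus strand, GRCm38 and GENCODE M21), rose with both kinds of corpse. Its levels were 99.6, 101, 108 and 108 CPM in macrophages alone. With control corpses they were 120, 129, 127 and 129 CPM, and with STC1OE corpses 129, 127, 127 and 130 CPM. All 8 libraries with corpses thus lay above all 4 without. The log2 fold change was 0.27 ± 0.03 (SE; adjusted p = 7.49e-09) with control and 0.30 ± 0.03 (adjusted p = 1.34e-09) with STC1OE corpses. The corpse groups differed by 0.02 (95% interval −0.04 to 0.08, adjusted p = 0.742). Neither rise passed a test against a change of 1.2-fold (adjusted p = 0.645 and 0.234 by edgeR's glmTreat), which 10.3% and 12.9% of all tested genes passed. Gm44876, an antisense gene model, overlaps 9.51% of the Il4ra exons. It drew 35, 75 and 56 counts over the 4 libraries of each group.

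Among the effectors, Chil3 (also called Ym1; ENSMUSG00000040809.10, chromosome 3, 106147554 to 106167564, minus strand) was the member that changed most. It stood at 2.00, 2.96, 3.19 and 2.15 CPM in macrophages alone. With control corpses the values were 0.473, 0.550, 0.448 and 0.503 CPM. In the STC1OE group they were 0.617, 0.389, 0.331 and 0.414 CPM. The lowest library without corpses was thus over 3 times the highest library with them. The fall was 5.2-fold with control corpses (log2 fold change −2.38 ± 0.20, adjusted p = 2.31e-11) and 5.82-fold with STC1OE corpses (−2.54 ± 0.21, adjusted p = 1.03e-11). For scale, the lowest 5% of all tested genes fell by 0.59 or more on the log2 scale with control corpses and by 0.69 or more with STC1OE corpses. Chil3 differed between the corpse groups by −0.16 (interval −0.69 to 0.37, adjusted p = 0.795), a width that leaves a difference of either sign possible. Chil3 and its copy Chil4 share 94.4% of transcript bases, but Chil4 had 0 counts in all 12 libraries.

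Chil3 is also known to be made by monocytes and neutrophils, and markers of both fell with it. The summed level of the 6 monocyte markers was 42.2 to 42.8 CPM in macrophages alone, 14.5 to 15.5 CPM with control corpses and 12.2 to 13.6 CPM with STC1OE corpses. Of these markers 4 were tested and all 4 fell in both comparisons, where 20.5% and 22.4% of all tested genes fell. Treml4 had 0 counts. Most of the sum came from Ccr2 (means of 23.2, 7.99 and 6.6 CPM) and Nr4a1 (13.8, 5.04 and 4.21 CPM). The 11 neutrophil markers summed to 239.5 to 248.2 CPM, 144.7 to 160.4 CPM and 140.6 to 151.1 CPM, and 6 of the 7 tested fell. Most of this sum came from Mmp8 (means of 167, 90.3 and 83.8 CPM) and Csf3r (60.4, 57.9 and 57 CPM). Next came S100a8, at 4.95, 2.72 and 2.93 CPM. S100a9, a neutrophil alarmin, had means of 4.17, 0.513 and 0.396 CPM, and Ly6c2, a monocyte surface antigen, of 0.683, 0.15 and 0.147 CPM. The part of these cells in the Chil3 result was not tested. In bulk RNA, fewer cells of a type and less RNA per cell cannot be told apart.

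Retnla (ENSMUSG00000061100.4, chromosome 16, 48842551 to 48844461, plus strand), a small secreted protein related to resistin, had 0 counts in all 12 libraries. At these depths that allows up to 0.105 CPM per library. Mgl2 (ENSMUSG00000040950.13, chromosome 11, 70130329 to 70137550, plus strand), a lectin that binds galactose and N-acetylgalactosamine, was detected at the low end. Its values were 0.380, 0.544, 0.848 and 0.480 CPM in macrophages alone, 0.398, 0.611, 0.532 and 0.237 CPM with control corpses, and 0.494, 0.454, 0.464 and 0.502 CPM with STC1OE corpses. The groups overlapped throughout, and no comparison passed the test (adjusted p = 0.347 and 0.523 against macrophages alone and 0.885 between the corpse groups). The interval of the difference was wide, since the spread within macrophages alone (SD 0.202, n = 4) was large beside the mean of 0.563 CPM. Its neighbour Clec10a, a related lectin with 61.4% of aligned transcript bases in common, had 585, 560 and 515 counts over the groups.

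Ccl24, eotaxin-2 (ENSMUSG00000004814.10, chromosome 5, 135569937 to 135573049, minus strand), was close to the counting floor. Its raw counts were 1, 3, 4 and 8 in macrophages alone, 2, 3, 2 and 2 with control corpses and 2, 2, 0 and 5 with STC1OE corpses. The sums were 16, 9 and 9 counts. The ratio to macrophages alone was 0.497 with control corpses (95% counting interval 0.193 to 1.19; exact two-sided permutation p = 0.229, n = 4) and 0.537 with STC1OE corpses (0.209 to 1.29; exact permutation p = 0.343, n = 4). Between the corpse groups it was 1.08 (0.38 to 3.07; exact permutation p = 0.914, n = 4). Adjusted over the 3 ratios the exact permutation p-values were 0.515, 0.515 and 0.914, where 4 against 4 libraries can reach 0.0286 at best. A difference in Ccl24 was not detectable at this depth.

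Of the secreted factors, Il10 (ENSMUSG00000016529.5, chromosome 1, 131019845 to 131024974, plus strand), a cytokine that restrains inflammation, fell with both kinds of corpse. It was at 5.28, 4.25, 4.39 and 4.64 CPM in macrophages alone. With control corpses it was at 3.23, 3.30, 3.56 and 3.64 CPM, and in the STC1OE group at 3.46, 2.92, 2.75 and 3.34 CPM. No library with corpses reached the lowest one without. The log2 fold change was −0.43 ± 0.10 (adjusted p = 0.000978) with control corpses and −0.57 ± 0.11 (adjusted p = 4.29e-05) with STC1OE corpses. The first call did not hold against 1.2-fold (adjusted p = 0.124 by glmTreat) or in libraries 3 and 4 alone (−0.33, adjusted p = 0.0743 by edgeR). With STC1OE against control corpses Il10 differed by −0.14 (interval −0.36 to 0.08, adjusted p = 0.532).

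Tgfb1 (ENSMUSG00000002603.15, chromosome 7, 25687002 to 25705077, plus strand) encodes TGF-beta 1, which is secreted in a latent form and acts in tolerance and scarring. Its levels were 446, 465, 462 and 445 CPM in macrophages alone, 489, 492, 489 and 503 CPM with control corpses, and 522, 532, 560 and 580.5 CPM with STC1OE corpses. The groups did not overlap in any pair. Tgfb1 rose by 0.12 ± 0.03 on the log2 scale with control corpses (adjusted p = 0.00101) and by 0.27 ± 0.03 with STC1OE corpses (adjusted p = 1.85e-09). Both rises are small. Neither passed the test against 1.2-fold (adjusted p = 1 and 0.612 by glmTreat), and in libraries 1 and 2 alone the rise with control corpses was not called (0.11, adjusted p = 0.0695 by edgeR).

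Igf1 (ENSMUSG00000020053.18, chromosome 10, 87858265 to 87937042, plus strand), a growth factor that macrophages supply to muscle and epithelium, was the member with the highest CPM. It was at 980, 942, 933 and 954 CPM in macrophages alone and at 931, 916, 913 and 918 CPM with control corpses. In the STC1OE group it was at 969, 979, 992 and 1005 CPM. Control corpses lay just below macrophages alone without overlap, but the difference of −0.051 ± 0.023 was not called (adjusted p = 0.0823), nor was that of 0.051 ± 0.023 with STC1OE corpses (adjusted p = 0.0788). Both depended on the setting. With total counts and no scaling factors, a setting chosen after seeing the data, the first became −0.076 (adjusted p = 0.00958 by edgeR) and the second −0.023 (adjusted p = 0.457 by edgeR). Under that scaling the median of all genes moved to −0.10 for STC1OE corpses against macrophages alone, and the genes called there became 2385 higher and 5112 lower, from 3510 and 3676. The second difference was called in 4 other settings. By edgeR it was 0.064 with RLE factors (adjusted p = 0.0321), 0.067 with only the 2 groups fitted (adjusted p = 0.0275) and 0.082 in libraries 3 and 4 alone (adjusted p = 0.00436). By DESeq2 it was 0.064 (adjusted p = 0.0115).

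The regulators differed in how much they moved. Klf4 (ENSMUSG00000003032.8, chromosome 4, 55527143 to 55532466, minus strand) was at 6.77, 8.51, 7.69 and 8.45 CPM in macrophages alone. With control corpses it was at 3.56, 3.12, 3.95 and 3.76 CPM, and with STC1OE corpses at 3.98, 4.12, 4.27 and 4.49 CPM. It fell 2.18-fold with control corpses (log2 fold change −1.13 ± 0.10, adjusted p = 2.74e-11) and 1.86-fold with STC1OE corpses (−0.90 ± 0.09, adjusted p = 2.6e-09). The corpse groups did not overlap, with STC1OE above control in all libraries, but the difference of 0.23 (interval 0.02 to 0.43) was not called (adjusted p = 0.198 by edgeR). Socs3 (ENSMUSG00000053113.3, chromosome 11, 117966079 to 117970047, minus strand) was at 1.04, 1.16, 1.26 and 1.13 CPM in macrophages alone, 0.746, 1.04, 1.18 and 0.681 CPM with control corpses and 0.679, 0.843, 1.03 and 0.827 CPM with STC1OE corpses. STC1OE libraries all lay just below those of macrophages alone, yet neither comparison was called (−0.34 ± 0.20, adjusted p = 0.181, and −0.45 ± 0.20, adjusted p = 0.0735). Without scaling factors the second was called (−0.52, adjusted p = 0.0354 by edgeR).

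**Figure D2:**
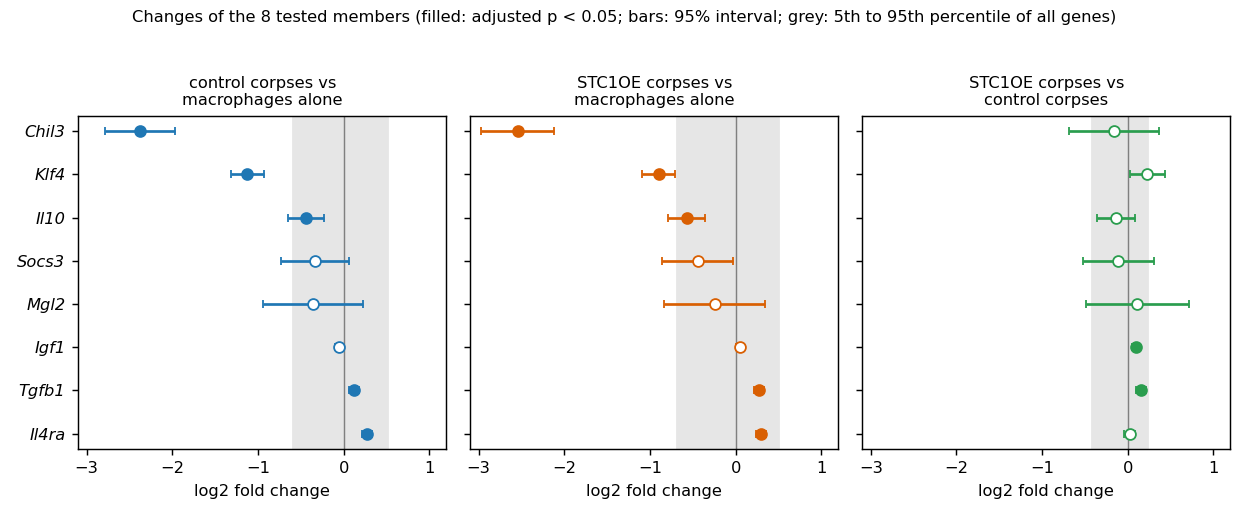
Log2 fold change of the 8 tested members in the 3 comparisons, with 95% intervals; filled points have an adjusted p below 0.05 and the grey band spans the 5th to 95th percentile of all tested genes. Chil3, at −2.38 and −2.54, and Klf4, at −1.13 and −0.90, lie below the band against macrophages alone, and between the corpse groups only Tgfb1 and Igf1 are filled.

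Per kilobase of exons, so that genes can be compared, the order in macrophages alone was Igf1 at 96.1 ± 2.06 (SD, n = 4), Tgfb1 at 90.1 ± 2.04, Il4ra at 17.3 ± 0.718, Il10 at 3.54 ± 0.349, Klf4 at 2.58 ± 0.267 and Chil3 at 1.58 ± 0.359 CPM per kilobase. Below them came Socs3 at 0.396 ± 0.0315, Mgl2 at 0.269 ± 0.0963 and Ccl24 at 0.0926 ± 0.0613 CPM per kilobase, with Retnla at 0. Socs3 and Mgl2 lay within the sum of their SDs of each other, and all other neighbours in this order lay further apart than that. With control corpses Tgfb1 was above Igf1 (97.8 ± 1.34 and 92.8 ± 0.808 CPM per kilobase), and Chil3 sank to 0.302 ± 0.0268, within the sum of the SDs of Socs3 (0.315 ± 0.0816) and of Mgl2 (0.212 ± 0.0783). With STC1OE corpses Socs3, Chil3 and Mgl2 again lay together, at 0.292, 0.268 and 0.228 CPM per kilobase. The order of Igf1 and Tgfb1 in macrophages alone depended on the length used: with the longest transcript Tgfb1 was at 177 and Igf1 at 135 CPM per kilobase. Among the 16406 tested genes Igf1 and Tgfb1 had a higher CPM than 99.5% and 98.7%, whereas Chil3, Socs3 and Mgl2 exceeded only 25.6%, 22.8% and 12%.

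**Figure D3:**
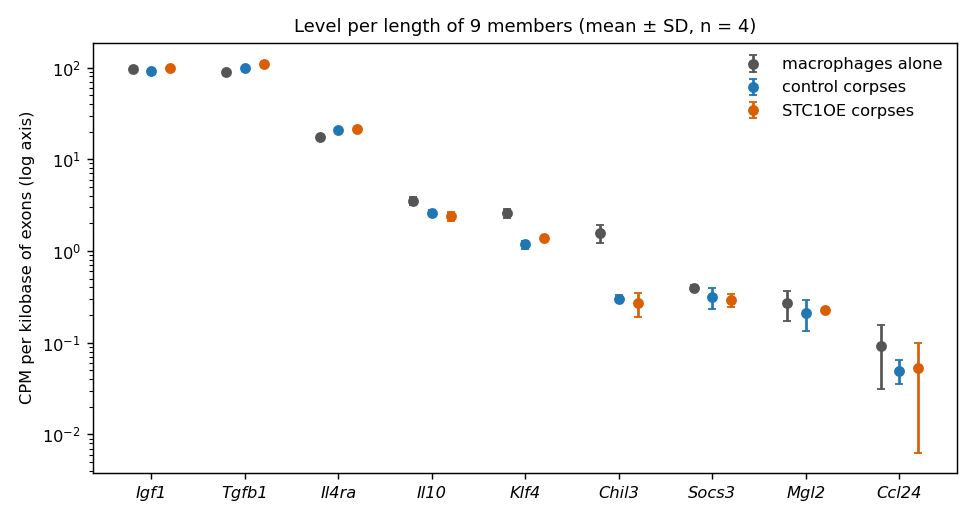
Level of 9 members per kilobase of exons (log axis), mean with SD over 4 libraries, for macrophages alone, control corpses and STC1OE corpses. Igf1 and Tgfb1 lie highest in all groups, at 90.1 to 109 CPM per kilobase, and Chil3 drops from 1.58 to 0.302 and 0.268 CPM per kilobase.

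Whether STC1 in the corpse changed these genes was asked by comparing the corpse groups. Tgfb1 and Igf1 were higher with STC1OE than with control corpses, by 0.15 ± 0.03 (interval 0.10 to 0.21, adjusted p = 0.000887) and 0.10 ± 0.02 (interval 0.05 to 0.15, adjusted p = 0.00756) on the log2 scale. Every STC1OE library lay above every control library for both genes. Tgfb1 was highest in STC1OE libraries 3 and 4 (560 and 580.5 CPM), as was Igf1 (992 and 1005 CPM). Without these libraries, a setting chosen after seeing the data, neither gene was called (0.10, adjusted p = 0.13, and 0.08, adjusted p = 0.197 by edgeR). In libraries 1 and 2 alone the values were 0.11 (adjusted p = 0.48) and 0.079 (adjusted p = 0.659), and in libraries 3 and 4 alone 0.20 (adjusted p = 3.65e-08) and 0.13 (adjusted p = 0.000118), all by edgeR. Without scaling factors Tgfb1 was still called (0.10, adjusted p = 0.0104 by edgeR) and Igf1 was not (0.053, adjusted p = 0.178 by edgeR). That scaling turned the calls over all genes from 546 higher and 347 lower into 185 and 913. Against a change of 1.2-fold, neither member passed (adjusted p = 1 for both by glmTreat), and 4 of all tested genes did, 0.0244%.

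Other measures moved between the corpse groups as well. The share of reads that did not align was above 14% in all STC1OE libraries and below 12% in all control corpse libraries. Transcripts of the melanoma cells themselves were lower with STC1OE corpses: the melanin enzyme Tyrp1 had means of 0.0313, 4.09 and 1.05 CPM in macrophages alone, control corpses and STC1OE corpses, and Pmel, which forms the fibrils of pigment granules, of 0.24, 2.43 and 1.4 CPM. Of the 12 melanocyte markers tested by edgeR, 9 rose and 1 fell with control corpses against macrophages alone. With STC1OE corpses 6 were at a lower level than with control corpses. The shares of all tested genes were 19.7% higher and 20.5% lower, and 2.12% lower between the corpse groups. The 17 markers summed to 165.1 to 172, 124.6 to 128.8 and 117.2 to 120.5 CPM, most of it from Mitf (means of 165, 110 and 109 CPM), a transcription factor that macrophages also make. Without Mitf, left out after seeing its level, the other 16 summed to 3.9 to 4.38 CPM in macrophages alone, 14.9 to 19.2 CPM with control corpses and 8.81 to 9.47 CPM with STC1OE corpses. The part of these measures in the Tgfb1 and Igf1 results was not tested. Stc1 itself had 5, 5 and 17 counts over the 4 libraries of each group, too few for the test.

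**Figure D4:**
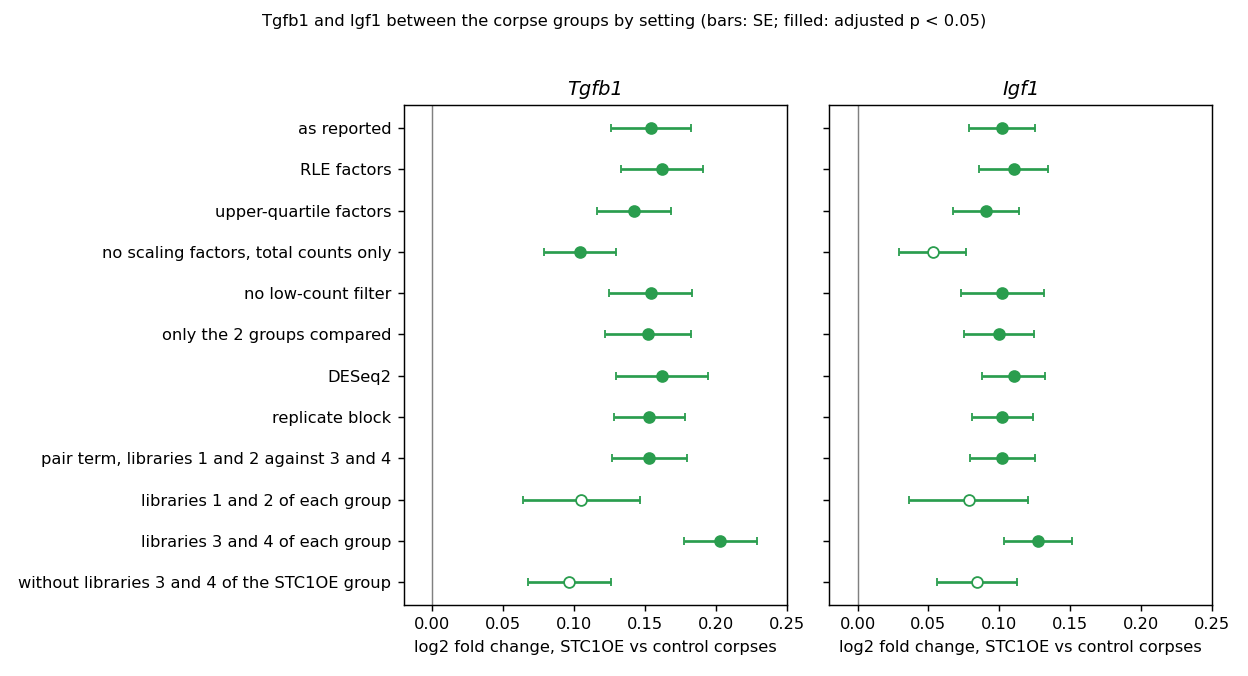
Log2 fold change of Tgfb1 and Igf1 between STC1OE and control corpses under 12 settings, with SE; filled points have an adjusted p below 0.05. All points lie above 0, from 0.0965 to 0.203 for Tgfb1 and from 0.0529 to 0.127 for Igf1, and the open points are those with libraries 1 and 2 only, without STC1OE libraries 3 and 4 and, for Igf1, without scaling factors.

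The other genes of the members' pathways were taken from 10 lists, which hold no member. Their counts stand beside the shares of all tested genes. These were 19.7% higher and 20.5% lower with control corpses, and 21.4% and 22.4% with STC1OE corpses. The medians over all tested genes were −0.001 and −0.03. In the pathway of the interleukin-4 receptor, 4 of 16 tested genes rose and 8 fell with control corpses (median −0.06), and 5 rose and 6 fell with STC1OE corpses (median −0.02). Socs1, an inhibitor of JAK kinases, rose from 2.69 ± 0.081 to 4.34 ± 0.357 CPM with control corpses (log2 fold change 0.69 ± 0.10, adjusted p = 1.73e-06). Il13ra1, which pairs with Il4ra to bind interleukin-13, fell from 19.1 ± 0.398 to 14.1 ± 1.24 CPM (−0.43 ± 0.06), and Dok2, an adaptor, fell by 0.29 on the log2 scale. Irs2, a docking protein for this receptor and for that of Igf1, rose by 0.39 ± 0.06 with STC1OE corpses (adjusted p = 3.29e-05).

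Of 26 further alternative activation markers tested, 3 rose and 13 fell with control corpses (median −0.26), and 4 rose and 12 fell with STC1OE corpses (median −0.28). The largest falls among the named genes were those of Matk, a kinase that restrains Src-family kinases, from 51.0 ± 2.06 to 25.8 ± 0.967 CPM with control corpses (−0.98 ± 0.04, adjusted p = 1.04e-18), and of Mmp12, macrophage elastase, from 2943 ± 110 to 1662 ± 77.8 CPM (−0.82 ± 0.04). Clec7a, the beta-glucan receptor Dectin-1, fell by 0.70 with control and by 0.76 with STC1OE corpses. In the chitinase-like and resistin-like families only Chil1 of 9 genes was tested, at 0.9636, 0.8291 and 0.7805 CPM, and it was not called (adjusted p = 0.399 and 0.236 against macrophages alone). Chil4, Chil6 and Retnlb had 0 counts in all 12 libraries. Chil5, Chia1, Chit1, Retn and Retnlg had at most 4 counts in any library.

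In the list of IL-10 signalling and STAT3 targets 3 of 21 genes rose and 12 fell with control corpses (median −0.24), and 5 rose and 11 fell with STC1OE corpses (median −0.13). Il10ra, the chain that binds IL-10, fell from 116 ± 4.81 to 72.7 ± 3.66 CPM with control corpses (−0.67 ± 0.03, adjusted p = 1.15e-16). Lifr, a cytokine receptor that signals through STAT3, fell by 1.32 on the log2 scale and Cd14, a co-receptor for lipopolysaccharide, fell by 1.267. Monocyte markers fell with these genes too, and their part was not tested. Of the 6 other SOCS genes tested, 2 rose and 1 fell with control corpses and 2 rose and 2 fell with STC1OE corpses. In either direction 40.1% and 43.8% of all tested genes were called, so counts in so short a list say little. Beside Socs1, Socs6 rose by 0.14 and Socs5 fell by 0.13 with control corpses.

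Among 28 genes of TGF-beta activation and signalling, 5 rose and 12 fell with control corpses (median −0.09), and 7 rose and 9 fell with STC1OE corpses (median −0.07). Lrrc32, which holds latent TGF-beta at the cell surface, fell from 6.11 ± 0.583 to 1.70 ± 0.138 CPM with control corpses (−1.85 ± 0.12, adjusted p = 2.2e-14) and to 1.61 CPM with STC1OE corpses. Thbs1, a matrix protein that can activate latent TGF-beta, fell from 210 ± 15.3 to 83.0 ± 8.26 CPM with control corpses, and Tgfbi, a matrix protein induced by TGF-beta, from 207 ± 2.87 to 122 ± 3.53 CPM. These fell while Tgfb1 itself rose. Most tested markers of fibroblasts, which make matrix, were lower as well. In both comparisons with macrophages alone 3 of the 4 tested fell, beside 20.5% and 22.4% of all tested genes. The 8 markers summed to 20.5 to 27.6 CPM in macrophages alone, 14.4 to 19.2 CPM with control corpses and 15.2 to 17.1 CPM with STC1OE corpses. Collagen Col1a1 had means of 10.9, 7.74 and 7.56 CPM and Postn of 3.27, 1.9 and 1.64 CPM. The collagen Col3a1 did not fall, with means of 0.79, 0.874 and 0.792 CPM. Pdgfra, Dcn, Lum and Thy1 had group means of at most 0.0932 CPM. The part of fibroblasts in the falls of the TGF-beta genes was not tested. Of 11 genes of the IGF axis, 3 rose and 5 fell with either kind of corpse. Igf1r, the receptor, fell by 0.33 ± 0.04 with control corpses, and Igfbp4, a binding protein that holds Igf1 back from its receptor, fell by 0.39 ± 0.03 with STC1OE corpses.

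In the KLF family 4 of 10 genes rose and 5 fell with either kind of corpse. Over all tested genes 19.7% rose and 20.5% fell with control corpses, and 21.4% and 22.4% with STC1OE corpses. Klf9 fell by 0.82 ± 0.07, Klf8 by 0.61 ± 0.10 and Klf2 by 0.41 ± 0.08 on the log2 scale with control corpses. These falls were smaller in size than that of Klf4 in the same comparison; the differences between genes were not tested. Klf11 rose by 0.28 ± 0.06 with STC1OE corpses. Of 6 eotaxin-related genes 3 rose and 3 fell with either kind of corpse. Ccl7, a chemokine that attracts monocytes and eosinophils, rose from 17.5 ± 1.07 to 51.4 ± 7.99 CPM with control corpses (1.55 ± 0.13, adjusted p = 4.9e-06), and Ccl2 by 1.58 ± 0.13. Ccr3, the receptor for Ccl24, fell from 42.2 ± 1.59 to 25.6 ± 1.39 CPM (−0.72 ± 0.04) and to 22.2 ± 1.1 CPM with STC1OE corpses (−0.93 ± 0.04). Ccr3 is also a marker of eosinophils. Of the 3 tested genes in the list of 10 eosinophil markers, 2 fell in both comparisons, Ccr3 itself among them. The list summed to 45.4 to 48.5, 27.9 to 30.3 and 24.2 to 26.8 CPM. Most of this came from Ccr3, so the sum does not stand apart from the Ccr3 result. Ear2, also tested, had means of 0.9, 0.979 and 0.971 CPM and was not called. Siglecf, an eosinophil surface lectin, had means of 3.39, 2.39 and 2.18 CPM, and the granule gene Prg2 of 0.219, 0.0586 and 0.0407 CPM. The granule genes Epx and Prg3 had group means of at most 0.0957 CPM. The part of these cells in the Ccr3 result was not tested.

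Among repair and growth factors 10 of 21 genes rose and 6 fell with control corpses (median 0.08), and 9 rose and 5 fell with STC1OE corpses (median 0.02). Vegfb, a vascular growth factor, rose from 18.2 ± 0.411 to 29.9 ± 1.88 CPM with control corpses (0.71 ± 0.05, adjusted p = 7.22e-14), and Pdgfc, a growth factor for mesenchymal cells, rose by 0.85 ± 0.13. Anxa1, which limits neutrophil entry, fell from 1654 ± 27.8 to 895 ± 31.7 CPM with control corpses (−0.89 ± 0.03, adjusted p = 3.32e-22) and by 1.04 ± 0.03 with STC1OE corpses. With each library left out in turn, no companion gene named so far as risen or fallen lost its call. In libraries 1 and 2 alone Irs2 lost its call in both comparisons (adjusted p = 0.212 and 0.0809), as did Socs5 with control corpses (adjusted p = 0.0919) and Socs6 and Klf11 with STC1OE corpses (adjusted p = 0.0709 and 0.0521), all by edgeR. Against 1.2-fold the calls of Dok2, Igf1r, Klf2, Irs2, Socs5 and Socs6 ended with control corpses (adjusted p = 0.45, 0.115, 0.113, 0.923, 1 and 1 by glmTreat), and with STC1OE corpses those of Igf1r, Il13ra1, Klf11, Socs5 and Socs6 (0.526, 0.0586, 0.615, 1 and 1). Without scaling factors Socs6 lost its call with STC1OE corpses (0.06, adjusted p = 0.19 by edgeR). Over all lists 97 of 141 tested companion genes were called with control corpses (68.8%, beside 40.1% of all genes) and 95 with STC1OE corpses (67.4%, beside 43.8%). The lists were chosen with earlier results known.

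**Figure D5:**
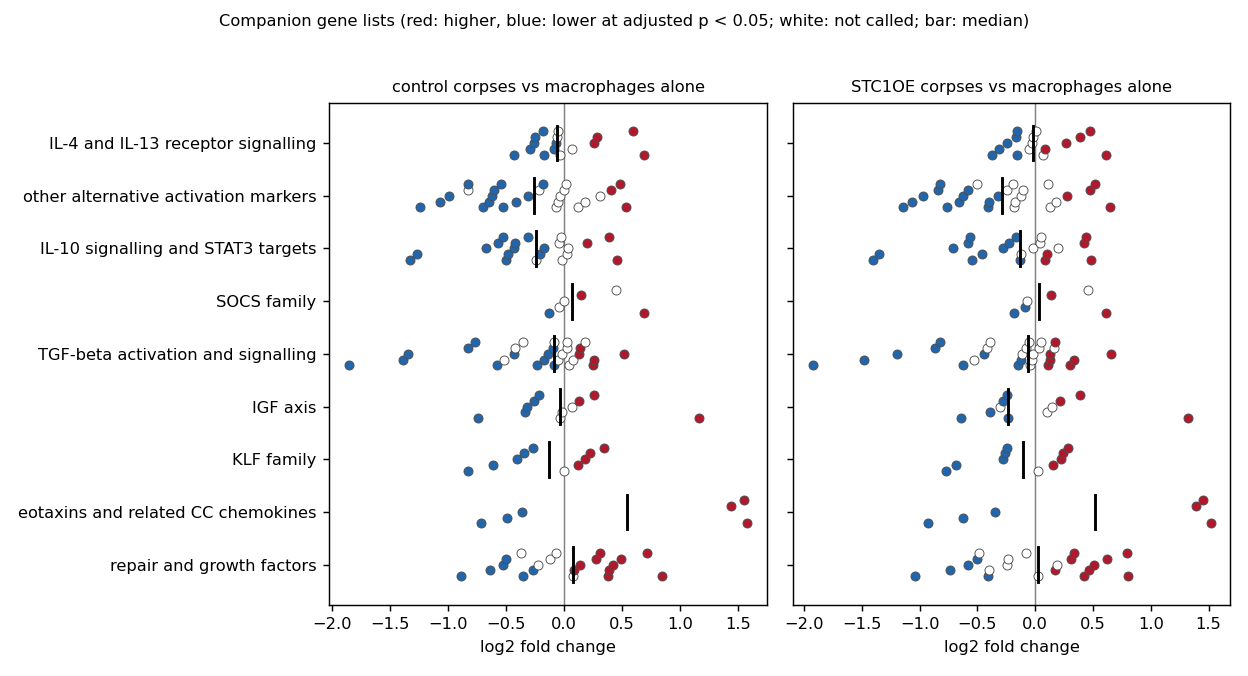
Log2 fold change of every tested gene of 9 companion lists with control corpses (left) and STC1OE corpses (right) against macrophages alone; red points were called higher, blue lower, white not called, and the bar is the list's median. In the further alternative activation markers 13 of 26 points are blue on the left and 12 on the right, while in the repair list 10 and 9 of 21 are red. Of all tested genes 20.5% and 22.4% were called lower and 19.7% and 21.4% higher.

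Between the corpse groups 12 of the 141 tested companion genes were higher with STC1OE corpses and 4 lower, 11.3% in all, beside 5.44% of all tested genes. Gdf15, a stress-induced cytokine, was higher with STC1OE corpses (0.23 ± 0.04, adjusted p = 9.77e-05), as was Tnfrsf1b, the second TNF receptor (0.20 ± 0.03, adjusted p = 0.000567). Anxa1 was lower (−0.16 ± 0.03, adjusted p = 0.000376), and so were Igfbp4 (−0.18 ± 0.03, adjusted p = 0.000473) and Ccr3 (−0.21 ± 0.05, adjusted p = 0.00571). By list, 5 of 21 repair factors were higher and 1 lower, and 4 of 21 genes of IL-10 signalling and STAT3 targets were higher. By edgeR, 0 of 28 genes of TGF-beta signalling, 0 of 6 other SOCS genes and 0 of 10 KLF genes were called. At an unadjusted p below 0.05 these counts were 7, 1 and 0, and DESeq2 called 1, 0 and 0. At the share over all genes, lists of 6 and 10 would hold few calls or none. Without STC1OE libraries 3 and 4 the call of Ccr3 was lost (−0.17, adjusted p = 0.205 by edgeR), and those of Gdf15, Tnfrsf1b, Anxa1 and Igfbp4 held. In libraries 1 and 2 alone only Gdf15 of these 5 genes was called; Tnfrsf1b, Anxa1, Igfbp4 and Ccr3 were not (adjusted p = 0.374, 0.421, 0.334 and 0.618 by edgeR). Against 1.2-fold none of the 5 passed (adjusted p = 1 for each by glmTreat). Leaving out STC1OE library 4 alone also ended the call of Ccr3 (−0.17, adjusted p = 0.0512 by edgeR).

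By root mean square distance of log2 CPM, centred on macrophages alone, over the 12 libraries and among 9932 protein-coding genes, the genes nearest to Klf4 were Spata13 (0.118), Otud1 (0.133) and H2-Aa (0.138). Nearest to Il10 were Ralgapa2 (0.0805), Rps4x (0.0835) and Klhl3 (0.0867), and nearest to Il4ra were H6pd (0.0302), Ap1m1 (0.0307) and Laptm4a (0.0308). The Klf4 neighbour Otud1 had means of 32.1, 15.7 and 16.3 CPM, and the Il4ra neighbour Laptm4a of 144, 176 and 179 CPM.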

How the data were processed

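RNA was measured in 12 libraries, grouped by their titles. The authors deposited raw counts, 1 table for each library. HISAT2, HTSeq, DESeq2 and the builds mm10 and GRCm38 are named, without versions, per the submitters' processing notes. The annotation release and the strand setting are not given in the sources used here. Reads of overlapping or antisense genes therefore cannot be told apart. Lines that name no gene were left out of library sizes: no feature (10.55% to 14.69% of reads), ambiguous (5.53% to 6.62%), low quality (5.17% to 5.85%), not aligned (10.81% to 17.77%) and not unique (5.74% to 7.03%).

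Gene identifiers were matched without version, which gave 54723 genes a symbol and left 881 without. Coordinates are those of GENCODE M21 on GRCm38, which lists 53861 of the identifiers in the same version. Counts were fitted over all 12 libraries with edgeR 4.0.16 in R 4.3.3 (TMM factors, filterByExpr with minimum count 10 and minimum total 15, robust quasi-likelihood test, two-sided, Benjamini-Hochberg adjustment over 16406 genes, threshold 0.05). Adjusted p-values without another name are from this test. The common biological coefficient of variation came to 4.53%. No 2 replicates agreed within sampling noise (chi-square per degree of freedom 2.56 to 15.3).

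The members and lists were chosen with earlier results of these data known. From each of the 10 lists, up to 3 called genes per comparison with the largest log2 fold change and a mean of at least 2 CPM were eligible to be named, or else up to 2 abundant ones as values. Likeness used a pseudocount of 0.5. Motifs were searched with Python 3.11.15. The fit was tested on simulated data in which 200 of the 16406 genes differed: at 1.2-fold, 1.5-fold and 2-fold it recovered 33.3%, 64.6% and 79.7% for control corpses against macrophages alone (11 false calls), 40.3%, 63.3% and 92.6% for STC1OE corpses (9 false calls), and 50%, 61.8% and 87.1% between the corpse groups (11 false calls). In the data 40.1% and 43.8% of tested genes were called against macrophages alone and 5.44% between the corpse groups. The adjustment is stricter where fewer genes differ, so these recoveries are not those of the data. Alternatives were RLE and upper-quartile factors, no filter, only the groups compared, DESeq2 1.42.0, a replicate block, a term for libraries 1 and 2 against 3 and 4, each of these pairs alone, a test against 1.2-fold, and leaving out each library in turn. Leaving out STC1OE libraries 3 and 4, and using no scaling factors, were chosen after seeing the data.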

Additional observations from a re-analysis of the deposited data

Results flagged for a closer look

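The difference between the corpse groups is also the difference between their effects against macrophages alone, and it was called by edgeR for 2 members and 16 companion genes, of which the 12 that the naming rule admits are given here. On the log2 scale, STC1OE minus control, it was 0.154 for Tgfb1 and 0.102 for Igf1. It was higher with STC1OE corpses for Gdf15 (0.231), Tnfrsf1b (0.198), Bcl3 (0.242), Vegfa (0.187), Ptpn1 (0.133), Hk3 (0.109), Il10rb (0.105) and Igf2r (0.0868). It was lower for Ptgs1 (−0.417), Ccr3 (−0.21), Igfbp4 (−0.177) and Anxa1 (−0.157). With some 1 library left out, Ptgs1, Bcl3, Il10rb, Igf2r, Vegfa, Ccr3 and Ptpn1 lost their call, with adjusted p-values by edgeR of up to 0.119, 0.129, 0.152, 0.0787, 0.0835, 0.0512 and 0.0535. Without STC1OE libraries 3 and 4, 8 of the 12 companion calls were lost, those of Ptpn1, Ptgs1, Hk3, Bcl3, Il10rb, Igf2r, Vegfa and Ccr3 (adjusted p = 0.358, 0.293, 0.124, 0.723, 0.48, 0.189, 0.347 and 0.205 by edgeR). In libraries 1 and 2 alone 11 of the 12 were lost, all but Gdf15, and in libraries 3 and 4 alone 1, that of Ptgs1 (adjusted p = 0.0938). Without scaling factors 6 were lost, those of Bcl3, Hk3, Igf2r, Il10rb, Ptpn1 and Vegfa (adjusted p = 0.0572, 0.146, 0.363, 0.264, 0.079 and 0.0836 by edgeR). Igf2r and Il10rb also lost theirs with upper-quartile factors and with only the 2 groups fitted, and Igf2r with no filter. Against 1.2-fold all 12 were lost (adjusted p = 1 by glmTreat).

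In 6 cases, 1 library of a group stood apart from the other 3 by Dixon's test, where chance gives about 1 in 20 of the groups tested, and no member was among them. Il10ra was at 108 CPM in replicate 1 of macrophages alone, where the next library was at 118. Hk3 was at 521 CPM in the same library, beside 536. In replicate 2 of macrophages alone Vegfb was at 18.8 CPM (next 18.1) and Socs4 at 45.5 CPM (next 47.4). Gdf15 was at 43.7 CPM in replicate 2 of control corpses (next 47.6), and Anxa1 at 834 CPM in replicate 1 of STC1OE corpses (next 796).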

How the results depend on the processing

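The depth limits Chil3, Socs3, Mgl2 and Ccl24 most, since their levels rest on few counts. Many changes of 1.2-fold were missed in simulated data, where fewer genes differed than were called in the data. Comparisons are given in the order control corpses against macrophages alone, STC1OE corpses against macrophages alone, and STC1OE against control corpses. As shares of tested genes called higher and lower, libraries 1 and 2 alone gave 12.1% and 12.7%, 13.7% and 14.5%, and 0.164% and 0.0363%, and members called higher became 1 with control corpses and 0 between the corpse groups. With libraries 3 and 4 alone the last comparison gave 7.83% and 3.78%. With no filter, and so more genes tested, the shares were 11.1% and 10.9%, 11.7% and 11.9%, and, higher only, 2.14%. Against 1.2-fold they were 4.49% and 5.8%, 5.5% and 7.41%, and 0.0122% each way, with 0 members higher in all 3. In the last comparison, leaving out STC1OE libraries 3 and 4 gave 0.668% and 0.31% with 0 members, and using no scaling factors 1.13% and 5.57% with 1 member higher. Except for the filter, the cause was not tested. Leaving out 1 library gave 17.6% to 21% higher and 17.3% to 19.8% lower, 19.5% to 22.5% and 19% to 22.2%, and 1.68% to 4.35% and 0.874% to 2.83%. Between the corpse groups control replicate 1 (1.11% lower), control replicate 3 (1.96% and 1.22%) and STC1OE replicates 3 (1.68% and 1.15%) and 4 (2.04% and 0.874%) each moved a share over 1.5 times. Members called stayed at 2 and 3, 2 to 3 and 3, and 2 and 0.

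Among the members and named companions, the sign turned only in differences that were not called. In libraries 1 and 2 alone Mgl2 was at 0.101, 0.0367 and −0.064, and Chil1 at 0.0319 and 0.00221 against macrophages alone. Without scaling factors Igf1 was at −0.0228 with STC1OE corpses against macrophages alone, and between the corpse groups Il4ra was at −0.0258, Nrros at −0.017 and Klf6 at −0.0309. Between the corpse groups Chil3 was at 0.0391 without STC1OE libraries 3 and 4, Klf6 at −0.00208 in libraries 3 and 4 alone, and Socs6 at 0.0196 there, 0.000425 with RLE factors and 0.000271 with DESeq2. With 1 library left out, Mgl2 ranged from −0.373 to 0.03 (positive without macrophages alone replicate 3) with STC1OE corpses against macrophages alone. Between the corpse groups Mgl2 then ranged from −0.085 (without control replicate 4) to 0.289, Il4ra from −0.00211 (control replicate 1) to 0.0338, and Socs3 from −0.219 to 0.0414 (control replicate 3). Chil1 ranged from −0.158 to 0.025 (STC1OE replicate 3) and Socs6 from −0.0362 to 0.0345 (control replicate 2). DESeq2 gave no adjusted p for Chil3, Mgl2, Socs3 and Chil1 between the corpse groups. With 1 library left out, Igf1 was called with STC1OE corpses against macrophages alone in 5 of 12 cases, with adjusted p down to 0.014 by edgeR.

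With the replicate number as a block, members called stayed at 2 and 3, 2 and 3, and 2 and 0, and the shares of all genes were 20.0% and 20.9%, 21.6% and 22.9%, and 4.13% and 2.51%. The numbers did not pair the libraries: deviations of same-numbered libraries correlated at −0.383 to 0.321, over 0.1 in 5 of 12 pairs, and 4 of 12 libraries correlated best with their own number.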

Other observations

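The following genes of the companion lists fall outside the naming rule and were picked after seeing their values. Egr2, a transcription factor of the interleukin-4 response, fell from 2.06 to 0.876 CPM with control corpses (log2 fold change −1.24 ± 0.18, adjusted p = 1.24e-06) and to 1.05 CPM with STC1OE corpses. Ccl22, a chemokine of alternatively activated macrophages, fell from 1.15 to 0.549 CPM with control corpses (−1.06 ± 0.23, adjusted p = 0.000318). With control corpses Mrc1, the mannose receptor, fell by 0.31 ± 0.02 and Pparg, a lipid-sensing nuclear receptor, by 0.54 ± 0.04. Cd36, a scavenger receptor for oxidized lipid, rose by 0.48 ± 0.02 and Tgm2 by 0.53 ± 0.05. Hk3, named above only for the corpse groups, rose by 0.41 ± 0.02. Cd36, Tgm2 and Hk3 are the 3 that rose among the 26 further alternative activation markers tested, where 13 fell. Arg1, the arginase often used as the marker of this state, was at 0.839, 1.05 and 0.957 CPM and was not called (adjusted p = 0.338 and 0.606). Itgb8, an integrin chain that activates TGF-beta, fell by 1.38 ± 0.34 from 0.555 CPM, and Htra1, a protease of IGF-binding proteins, rose from 0.913 to 2.03 CPM (1.16 ± 0.16, adjusted p = 6.61e-07), both with control corpses.

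Il4 itself was detected in every library, with 180, 302 and 250 counts over the groups. Its level was 1.41 ± 0.162 CPM in macrophages alone, 2.14 ± 0.406 CPM with control corpses and 1.96 ± 0.346 CPM with STC1OE corpses (n = 4 each). Il4 rose by 0.60 ± 0.16 with control corpses (adjusted p = 0.00301) and by 0.47 ± 0.16 with STC1OE corpses (adjusted p = 0.0183). The T cell genes Cd3e, Cd3d, Trbc1 and Trbc2 had group means of at most 0.05 CPM, and Il13 had 9, 0 and 1 counts over the groups. Which part of the Il4 locus drew these reads was not tested.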
